A study of Mus musculus with 24 samples.

Results

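The collagen genes of sorted mouse colon fibroblasts are described here: every gene whose name in the array's annotation has the form Col, a number, a and a number. The rule found 43 members among 30827 genes with a single gene name. Each gene was read from its brightest probe set, meaning the one with the highest mean over all arrays. By class, 11 were fibrillar (Col1a1, Col1a2, Col2a1, Col3a1, Col5a1, Col5a2, Col5a3, Col11a1, Col11a2, Col24a1 and Col27a1) and 6 belonged to the basement membrane (Col4a1 to Col4a6). A further 9 were fibril-associated (Col9a1, Col9a2, Col9a3, Col12a1, Col14a1, Col16a1, Col19a1, Col20a1 and Col22a1). The other 17 were Col6a1 to Col6a6, Col8a1, Col8a2, Col10a1, Col13a1, Col15a1, Col17a1, Col18a1, Col23a1, Col25a1, Col26a1 and Col28a1.

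The cells were sorted from the colon as Epcam-, CD45-, CD31- and gp38+ (gp38 is podoplanin, a membrane protein of fibroblasts), and 1 array was made per sample. All 3 groups came from mice carrying Villincre-ERT2, an inducible Cre recombinase driven by the Villin promoter of the intestinal epithelium, and the ZsGreen reporter. The WT group (IhhWT-ApcWT) had 7 arrays, the ApcKO group (IhhWT-ApcKO) had 8, and the IhhKO_ApcKO group (IhhKO-ApcKO) had 9. Apc restrains Wnt signalling, and Ihh (Indian hedgehog) is a Hedgehog ligand that the colon epithelium secretes to the stroma. Since the Cre is active in the epithelium, the genes were deleted in cells outside the sorted gate. The sources used here give no ages, sexes or induction schedule and do not say that each array had its own mouse, so p-values measure the spread between these samples. Values are RMA log2 levels, on which a difference of 1 is a doubling.

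Several facts of the arrays bear on what follows. Pdpn, the gene of gp38, lay between 10.70 and 11.08 on all 24 arrays, and the mean of 6 measured fibroblast markers between 10.8 and 11.1. The group means of these markers were 11.06 ± 0.04 in WT, 10.99 ± 0.04 in ApcKO and 10.95 ± 0.08 in IhhKO_ApcKO (SD). The array labelled IhhKO_ApcKO B9 stood apart: Gli1, a transcription factor that Hedgehog signalling induces, was at 7.99 on it and between 6.64 and 7.05 on the other 8 IhhKO_ApcKO arrays. Gli1 lay between 7.98 and 8.20 on WT arrays, so results that rest on B9 are given with and without it. The letter in the sample code, whose meaning is not stated, ran almost along with genotype (A for WT and ApcKO A9, B for the other ApcKO arrays and B9, C for the remaining IhhKO_ApcKO arrays), so letter and genotype cannot be told apart except through A9 and B9. In these bulk samples, fewer cells of a type and less RNA per cell cannot be told apart.

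Collagens are secreted proteins whose chains wind into a triple helix. Fibrillar collagens build the tensile fibres of connective tissue, with collagen I made of Col1a1 and Col1a2 chains and collagen III of Col3a1 chains. Fibril-associated collagens such as XII and XIV sit on the fibre surface, and collagen IV chains form the sheet-like network of basement membranes under epithelia and around muscle and vessels. Collagen VI makes beaded filaments near cells, and collagens XV and XVIII lie where basement membranes meet the stroma. In the gut wall, fibroblasts are a main source of the fibrillar collagens.

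Col4a1 with Col4a2 and Col4a5 with Col4a6 start beside each other on opposite strands. Their promoters, with that of the collagen I gene Col1a2, are shown because levels of these partner chains are compared across arrays further on. The windows are from RefSeq (GRCm38.p6) and run from 250 bases before to 50 bases after the annotated start, 5′ to 3′ on the gene's own strand. A window was found for 34 of the 43 members. In the windows of Col4a1 (chr8:11312777-11313076, minus strand) and Col4a2 (chr8:11312555-11312854, plus strand), the 78 bases that both windows contain are in capitals.
Col4a1: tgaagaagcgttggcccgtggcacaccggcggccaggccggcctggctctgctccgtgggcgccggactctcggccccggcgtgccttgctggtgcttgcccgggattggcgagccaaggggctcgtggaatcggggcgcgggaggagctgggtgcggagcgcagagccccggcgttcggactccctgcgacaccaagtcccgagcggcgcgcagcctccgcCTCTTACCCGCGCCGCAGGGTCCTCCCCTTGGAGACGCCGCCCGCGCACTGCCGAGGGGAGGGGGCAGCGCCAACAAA
Col4a2: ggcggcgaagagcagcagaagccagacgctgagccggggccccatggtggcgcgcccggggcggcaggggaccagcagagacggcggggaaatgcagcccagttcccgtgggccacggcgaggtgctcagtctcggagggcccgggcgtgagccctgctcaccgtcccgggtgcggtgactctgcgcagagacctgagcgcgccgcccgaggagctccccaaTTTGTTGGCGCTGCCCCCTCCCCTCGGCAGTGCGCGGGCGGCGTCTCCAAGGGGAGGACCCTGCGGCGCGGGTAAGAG
In the windows of Col4a5 (chrX:141475169-141475468, plus strand), Col4a6 (chrX:141474027-141474326, minus strand) and Col1a2 (chr6:4505368-4505667, plus strand), capitals mark matches to CCAAT and to GGGCGG, on either strand.
Col4a5: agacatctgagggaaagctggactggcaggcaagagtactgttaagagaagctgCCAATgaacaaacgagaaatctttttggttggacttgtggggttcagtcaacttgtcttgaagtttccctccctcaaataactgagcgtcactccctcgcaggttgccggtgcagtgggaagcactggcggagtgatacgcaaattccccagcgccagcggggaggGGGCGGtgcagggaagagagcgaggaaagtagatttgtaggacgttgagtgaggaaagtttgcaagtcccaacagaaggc
Col4a6: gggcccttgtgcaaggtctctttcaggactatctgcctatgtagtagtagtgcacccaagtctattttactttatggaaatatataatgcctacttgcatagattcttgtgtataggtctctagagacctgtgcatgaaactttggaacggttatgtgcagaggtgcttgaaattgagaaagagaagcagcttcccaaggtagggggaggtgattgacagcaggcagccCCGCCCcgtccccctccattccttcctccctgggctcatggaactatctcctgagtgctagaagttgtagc
Col1a2: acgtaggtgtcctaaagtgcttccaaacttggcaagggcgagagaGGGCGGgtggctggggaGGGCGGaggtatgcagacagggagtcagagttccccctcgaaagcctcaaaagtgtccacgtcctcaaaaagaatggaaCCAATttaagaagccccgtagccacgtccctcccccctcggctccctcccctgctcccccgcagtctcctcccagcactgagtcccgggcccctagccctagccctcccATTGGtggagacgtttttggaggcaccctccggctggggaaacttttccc

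The shared start region of Col4a1 and Col4a2 was rich in G and C, which made up 74.0% and 73.7% of the windows. Between the windows of Col4a5 and Col4a6 lay 842 bases, and G and C made up 52.7% and 48.3% of them. The window of Col1a2 held 61.0% G and C. Both strands of all windows were searched for 4 motifs, none of which contains another. CCAAT was found in 12 of the 37 collagen windows (32.4%) and in 37.4% of all 32851 windows. GGGCGG, the GC box, was found in 22 collagen windows (59.5%) and in 35.7% of all windows. TATAAA was found in 5 collagen windows (13.5%, against 13.6% of all), those of Col3a1, Col10a1, Col11a2, Col13a1 and Col17a1. The letters GACCACCCA, the core bound by Gli factors, were in 0 collagen windows and in 0.253% of all windows. A match is a description of the letters and not of binding.

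A minority of the collagens was bright in these fibroblasts. Of the 43 members, 11 had a mean over all arrays above the 95th percentile of the negative control probe sets (8.21): Col1a1, Col1a2, Col3a1, Col5a1 and Col5a2 of the fibrillar class, Col12a1 and Col14a1 of the fibril-associated class, and Col6a1, Col6a2, Col6a3 and Col15a1. They are called the bright collagens below. Of all 30827 genes, 3064 lay above the same level, a smaller share than among the collagens. Col4a1 at 8.02, Col4a2 at 8.18, Col8a1 at 8.03 and Col18a1 at 7.77 lay just under that level. Against the median of the negative controls (4.65), 42 members were above and Col10a1, the collagen of cartilage growth plates, was below at 4.18. No basement membrane collagen passed the stricter control level. Levels of different genes come from different probes and are not compared with each other.

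**Figure D1:**
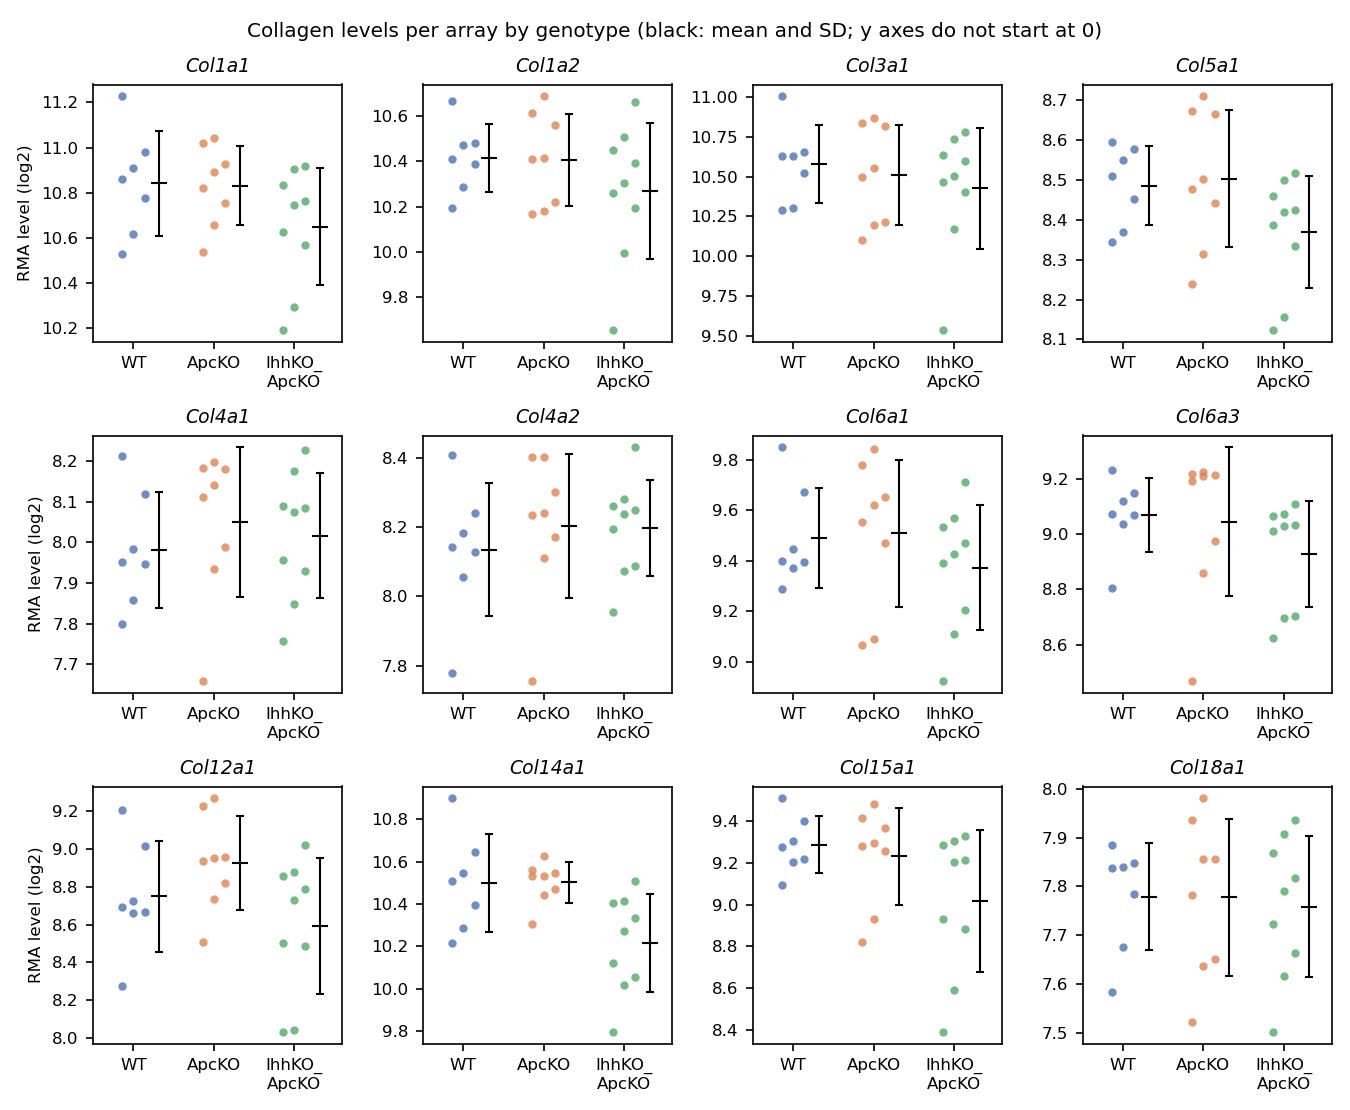
RMA log2 levels of 12 collagen genes on each of 24 arrays (points) in WT, ApcKO and IhhKO_ApcKO, with the group mean and SD in black; the y axes differ and do not start at 0. The groups overlap in every panel, and Col14a1 has its 5 lowest IhhKO_ApcKO arrays below all 8 ApcKO arrays.

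The 3 comparisons ask how the fibroblasts differ when epithelial Apc is lost, when Ihh is lost as well, and when both are lost against WT. No collagen passed the test (limma, Benjamini-Hochberg adjusted p under 0.05 over all genes) in any of them. In ApcKO minus WT, 0 of 43 members and 0.0% of all genes passed. In IhhKO_ApcKO minus ApcKO 0 members passed, against 0.0454% of all genes (14 genes), and in IhhKO_ApcKO minus WT 0 members passed, against 0.0811% (25 genes). The smallest adjusted p of a collagen was 0.97, 0.51 (Col14a1) and 0.22 (Col4a5) in that order. The 3 comparisons share groups, so they are not independent of one another.

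Most collagens nevertheless had lower means in IhhKO_ApcKO. Against WT, 40 of 43 members were lower, with a median log2 difference of -0.10, while 55.1% of all genes were lower, with a median of -0.011. Against ApcKO, 36 of 43 were lower with a median of -0.032, beside 43.4% and 0.011 over all genes. In ApcKO minus WT, 35 of 43 were lower with a median of -0.057, beside 60.6% and -0.021; after centring each array on its median gene, the numbers of lower members were 37, 35 and 29 in the same order. The 11 bright collagens all had lower means in IhhKO_ApcKO than in either other group, with a median of -0.15 against WT (range -0.29 to -0.12; -0.097 with array weights) and -0.14 against ApcKO (range -0.33 to -0.058). A fit with the code letter as a term rests on A9 and B9 alone, since it takes the difference from ApcKO from B9 against the ApcKO arrays of its letter. In that fit 7 of the 11 were lower than in ApcKO, with a median of -0.016, and all 11 were lower than in WT, with a median of -0.33. B9 is the array whose Gli1 was at the level of WT arrays. These values cannot be given without it, so they cannot decide how the other IhhKO_ApcKO arrays differ from ApcKO. Of the 3064 genes of all kinds above the same control level, 47.6% and 43.8% were lower in those comparisons. In ApcKO minus WT 7 of the 11 were lower, with a median of -0.010, against 11 and -0.35 with the code letter, 4 and 0.016 after centring, and 2 and 0.048 with array weights. These counts have no test of their own, and members of one fibre vary together between arrays, as shown further on.

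Single arrays bore on these counts to different degrees. Leaving out 1 array at a time, B9 included, all 11 stayed lower than in WT, and 9 to 11 stayed lower than in ApcKO (9 without C3, 11 without any other array), while in ApcKO minus WT the number moved between 3 and 9 and the median between -0.048 and 0.033. Without B9 the median of the 11 was -0.19 against WT and -0.19 against ApcKO. C9 and C3 had the lowest bright collagens, with median deviations of -0.46 and -0.31 from the mean over all arrays. The dim collagens were highest on WT A2, where the 32 other members deviated by a median of 0.25. The median over all genes was also highest on A2, at 5.72, against 5.52 to 5.66 on the other arrays. Without A2 the median over all 43 went to -0.024 in ApcKO minus WT and to -0.062 in IhhKO_ApcKO minus WT. In IhhKO_ApcKO minus ApcKO that median went to -0.012 without C3 and to -0.019 without B7. A fit with the code letter as a term, which sets A9 against the WT arrays and B9 against the ApcKO arrays of its letter, left 28 of 43 members lower in ApcKO minus WT, 17 in IhhKO_ApcKO minus ApcKO and 25 in IhhKO_ApcKO minus WT.

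At an unadjusted p under 0.05 stood 1 collagen in ApcKO minus WT (Col6a6), where 4.41% of all genes did, or 2.33% of the members against that share. In IhhKO_ApcKO minus ApcKO there were 3 (Col14a1, Col12a1 and Col4a5; 6.98% of members against 4.94% of all genes). In IhhKO_ApcKO minus WT there were 8 (Col4a3, Col4a5, Col6a2, Col6a6, Col14a1, Col15a1, Col16a1 and Col23a1; 18.6% of members against 7.62%). All of these were lower in the group named first. Of all genes at that level, 963 of 1360, 722 of 1524 and 1411 of 2350 were lower in the same order. Leaving out 1 array at a time, the number was 0 to 6, 1 to 8 and 4 to 13 in the same order. In ApcKO minus WT it was 0 without A2, A4, A8, B1, B3, B4, B5 or B7, 2 without B9 and 6 without A5. In IhhKO_ApcKO minus ApcKO it was 1 without B4, B7, C7 or C9, 5 without B9 or C5, 6 without B8 or C2 and 8 without A9. In IhhKO_ApcKO minus WT it was 4 without A2, 5 without A8, 11 without B9, 12 without A5 and 13 without A6. No collagen had groups that did not overlap, against 0.00649%, 0.0227% and 0.0714% of all genes in the same order.

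**Figure D2:**
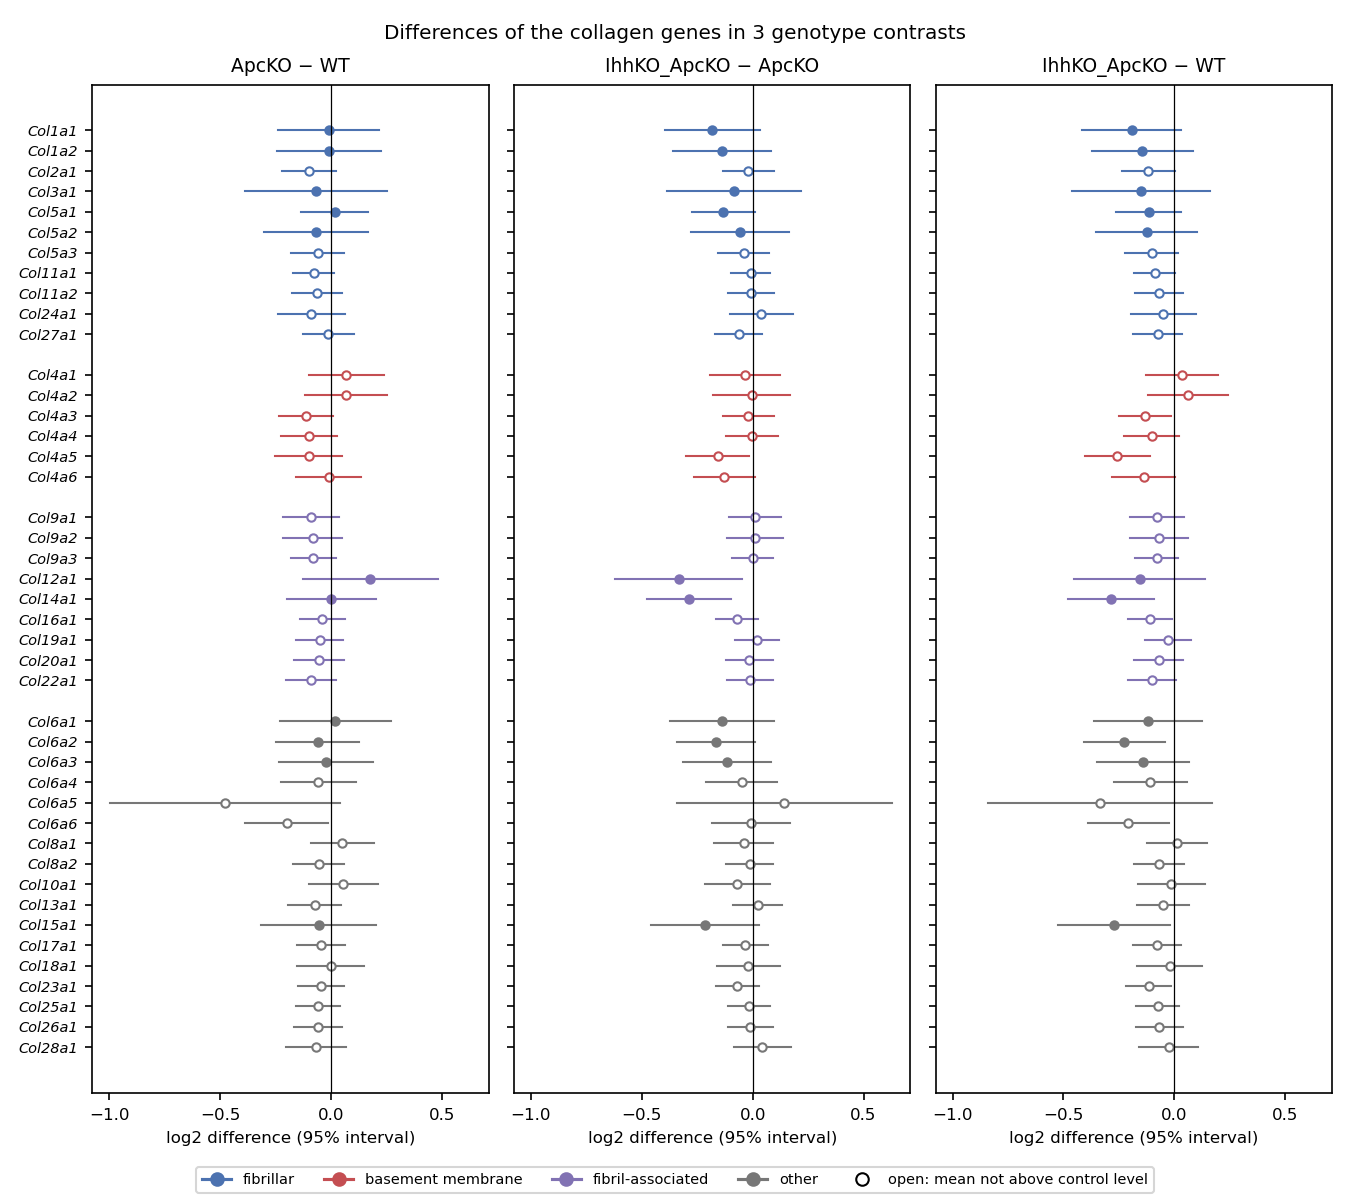
Log2 differences of the 43 collagen genes with 95% intervals, 1 comparison of genotypes per panel, by class (colour); open circles mark genes whose mean is not above the 95th percentile of the negative controls. Filled circles lie left of 0 in both comparisons of IhhKO_ApcKO, and Col6a5 has the widest interval.

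Among the fibrillar collagens, 0 of 11 passed in any comparison, and all 11 had lower means in IhhKO_ApcKO than in WT (median -0.12). Col1a1, which gives collagen I most of its chains, had a lowest, median and highest level of 10.53, 10.86 and 11.23 in WT, of 10.54, 10.86 and 11.04 in ApcKO, and of 10.19, 10.75 and 10.92 in IhhKO_ApcKO. The groups overlapped over most of their range, and only 2 IhhKO_ApcKO arrays (C3 and C9) lay below every WT array. The difference from WT was -0.19 (SE 0.11, 95% interval -0.41 to 0.030, adjusted p = 0.72), and it was -0.13 without WT A3. The difference from ApcKO was -0.18 (SE 0.10, interval -0.40 to 0.032).

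Col1a2, the partner chain, stood at 10.41 ± 0.15 in WT (SD, n = 7), 10.41 ± 0.20 in ApcKO (SD, n = 8) and 10.27 ± 0.30 in IhhKO_ApcKO (SD, n = 9). Its lowest array was IhhKO_ApcKO C3 at 9.66. Col3a1, the chain of collagen III, stood at 10.58 ± 0.24, 10.51 ± 0.31 and 10.43 ± 0.38 in the same order, and C3 was again lowest, at 9.54. Without C3, the difference of Col3a1 from WT went from -0.15 to -0.039, and its difference from ApcKO from -0.084 to 0.027; without WT A3 the former was -0.079. The latter was -0.033 without B7, -0.038 without B2, -0.041 without B4 and -0.053 without C9, and ran from -0.13 to -0.14 without A9, B5, B8 or B9. Collagen V starts and limits fibre growth. Its chain Col5a1 stood at 8.49 ± 0.10, 8.50 ± 0.17 and 8.37 ± 0.14, with a difference from ApcKO of -0.13 (SE 0.069, interval -0.28 to 0.0087). For Col1a1 the interval against WT reaches from a 1.33-fold lower level in IhhKO_ApcKO to a slightly higher one.

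The remaining 6 fibrillar genes (Col2a1, Col5a3, Col11a1, Col11a2, Col24a1 and Col27a1) were not above the stricter control level. Col2a1 and Col11a1, collagens of cartilage, stood at 6.83 ± 0.16 and 5.74 ± 0.11 in WT and at 6.71 ± 0.08 and 5.65 ± 0.04 in IhhKO_ApcKO. Col11a1 was among the 4 members with the smallest p in ApcKO minus WT. Its lowest, median and highest levels were 5.61, 5.76 and 5.94 in WT and 5.58, 5.70 and 5.71 in ApcKO, and the difference of -0.079 (SE 0.046) went to -0.046 without WT A2.

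Among the basement membrane collagens, 0 of 6 passed. Their means in IhhKO_ApcKO were all below those of ApcKO, by differences from -0.16 to -0.0036, while against WT 4 were lower and 2 higher. Col4a1 and Col4a2, the chains of the common collagen IV network, had means in IhhKO_ApcKO that differed from WT by 0.035 (SE 0.080, interval -0.13 to 0.20) and 0.063 (SE 0.087, interval -0.12 to 0.24). Col4a1 had a lowest, median and highest level of 7.80, 7.95 and 8.21 in WT, of 7.66, 8.13 and 8.20 in ApcKO, and of 7.76, 8.08 and 8.23 in IhhKO_ApcKO. Col4a2 ran from 7.78 to 8.41, from 7.76 to 8.40 and from 7.96 to 8.43 in the same groups, with medians of 8.14, 8.24 and 8.24. The ranges covered one another almost wholly for both genes. With the code letter in the fit, the differences from WT turned to -0.34 for Col4a1 and -0.38 for Col4a2.

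Col4a5, a chain of the collagen IV networks found in smooth muscle and in some epithelial basement membranes, had the smallest p of all collagens in IhhKO_ApcKO minus WT. Its lowest, median and highest levels were 6.57, 6.66 and 6.77 in WT, 6.33, 6.57 and 6.70 in ApcKO, and 6.10, 6.45 and 6.72 in IhhKO_ApcKO. All IhhKO_ApcKO arrays except B9, at 6.72, lay below every WT array, which is 8 of 9. The difference was -0.26 (SE 0.071, interval -0.40 to -0.11), or 1.20-fold lower, with an adjusted p of 0.22. The difference from ApcKO was -0.16 (SE 0.069, adjusted p = 0.93). Without B9 the difference from WT was -0.30 (SE 0.066, adjusted p = 0.062), and Col4a5 became the 1 collagen whose groups did not overlap, as 0.214% of all genes did. Without B9 no collagen was free of overlap between IhhKO_ApcKO and ApcKO, beside 0.101% of all genes. In the fit with the code letter, which takes the difference from ApcKO from B9 alone, the differences were 0.0019 from WT and 0.14 from ApcKO.

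Col4a6, whose gene lies beside Col4a5, stood at 5.90 ± 0.14 in WT, 5.88 ± 0.10 in ApcKO and 5.76 ± 0.16 in IhhKO_ApcKO, with a difference from WT of -0.14 (SE 0.069, interval -0.28 to 0.0046). Col4a3 and Col4a4, chains best known from the kidney filter, were dim. Col4a3 had a lowest, median and highest level of 6.04, 6.13 and 6.57 in WT, with A2 highest, against 6.04, 6.07 and 6.15 in ApcKO. The difference of Col4a3 was -0.11 (SE 0.059, adjusted p = 0.97) and went to -0.051 without A2. Col4a4 stood at 6.21 ± 0.16, 6.12 ± 0.08 and 6.11 ± 0.10 in WT, ApcKO and IhhKO_ApcKO.

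Among the fibril-associated collagens, 0 of 9 passed, and Col14a1 and Col12a1 had the smallest p of all collagens against ApcKO. Col14a1, which coats collagen I fibres and regulates their spacing, had a lowest, median and highest level of 10.22, 10.51 and 10.90 in WT, of 10.31, 10.53 and 10.62 in ApcKO, and of 9.80, 10.27 and 10.51 in IhhKO_ApcKO. ApcKO arrays lay in a narrow band, and 5 of 9 IhhKO_ApcKO arrays lay below all of them. The difference was -0.29 (SE 0.091, interval -0.48 to -0.099, adjusted p = 0.51), or 1.22-fold lower. Against WT it was also -0.29 (SE 0.095, adjusted p = 0.36), and the ApcKO and WT means differed by 0.0018. Without B9 the differences were -0.30 and -0.29. Leaving out each array in turn kept them between -0.32 and -0.24 against ApcKO and between -0.33 and -0.22 against WT.

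Col12a1, which links fibres to other matrix and is produced under mechanical load, ran from 8.28 over a median of 8.69 to 9.20 in WT. It ran from 8.51 over 8.95 to 9.27 in ApcKO and from 8.03 over 8.73 to 9.02 in IhhKO_ApcKO. Against ApcKO, 8 of 9 IhhKO_ApcKO arrays were below the ApcKO mean and 4 were below every ApcKO array. The difference was -0.33 (SE 0.14, interval -0.62 to -0.047, adjusted p = 0.89), or 1.26-fold lower. With the code letter in the fit, which sets B9 alone against the ApcKO arrays of its letter, it was -0.074. Against WT it was -0.16 (SE 0.14, interval -0.45 to 0.14), and it was -0.081 without WT A5, -0.087 without C7, -0.086 without C9 and -0.24 without WT A4. C7 and C9, at 8.04 and 8.03, were the lowest of all arrays. The remaining 7 genes of the class (Col9a1, Col9a2, Col9a3, Col16a1, Col19a1, Col20a1 and Col22a1) were not above the stricter control level. Of these, Col16a1 was at 7.11 ± 0.09 (SD, n = 7) in WT and differed from it in IhhKO_ApcKO by -0.11 (SE 0.048, interval -0.21 to -0.011, adjusted p = 0.59).

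**Figure D3:**
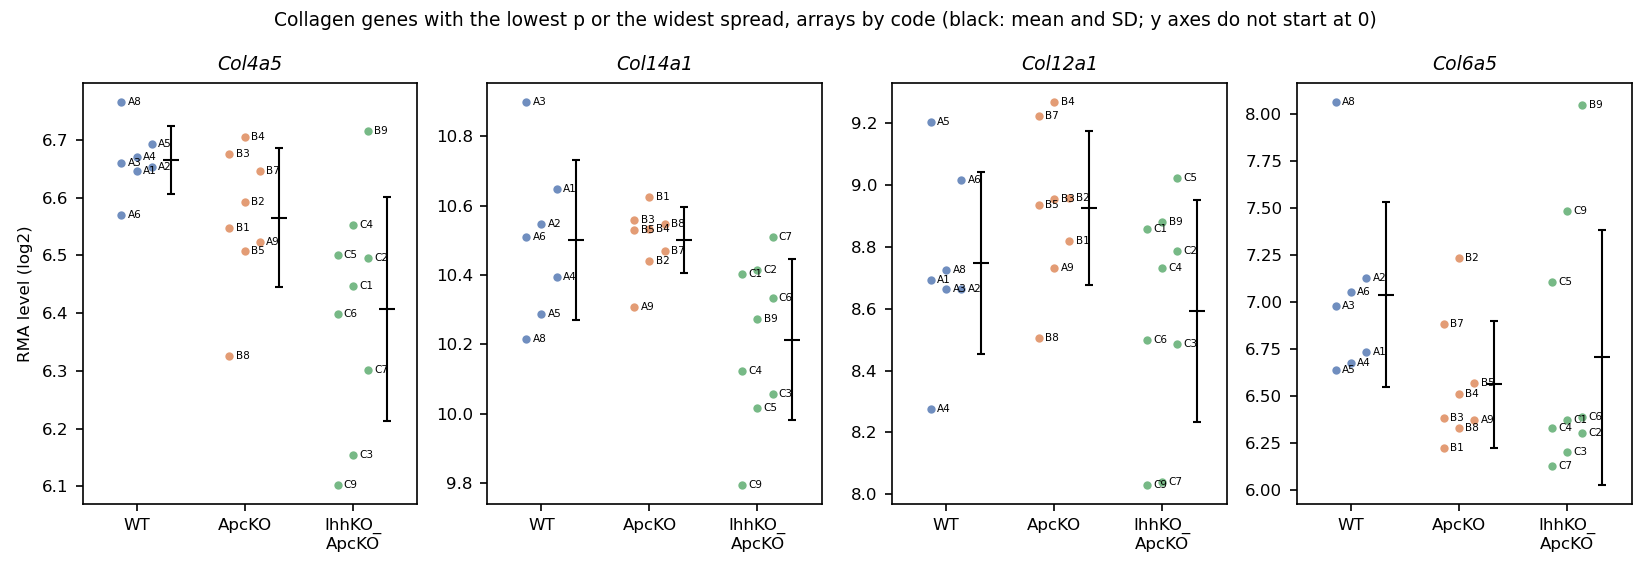
RMA log2 levels of Col4a5, Col14a1, Col12a1 and Col6a5 on each array, labelled by sample code, with group mean and SD in black; the y axes do not start at 0. In Col4a5 all IhhKO_ApcKO arrays except B9 lie below the lowest WT array (6.57), and Col6a5 is highest on WT A8 and IhhKO_ApcKO B9.

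Of the other 17 collagens, 0 passed. Collagen VI is built from Col6a1, Col6a2 and a further chain, usually Col6a3. Col6a1 had a lowest, median and highest level of 9.29, 9.40 and 9.85 in WT, of 9.07, 9.59 and 9.84 in ApcKO, and of 8.92, 9.43 and 9.71 in IhhKO_ApcKO. Its difference in IhhKO_ApcKO from WT was -0.12 (SE 0.12), and -0.057 without A5 or -0.061 without C9. The difference from ApcKO was -0.14 (SE 0.11), and -0.089 without B3 or -0.081 without C9. Col6a2 ran from 8.92 over 9.17 to 9.49 in WT, from 8.84 over 9.19 to 9.32 in ApcKO and from 8.62 over 8.94 to 9.17 in IhhKO_ApcKO. All 9 IhhKO_ApcKO arrays of Col6a2 were below the WT mean, 3 of them below every WT array, with a difference of -0.23 (SE 0.089, interval -0.41 to -0.043, adjusted p = 0.52). Col6a3 stood at 9.07 ± 0.13, 9.05 ± 0.27 and 8.93 ± 0.19, with ApcKO A9 lowest of all arrays at 8.47.

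Col6a4, Col6a5 and Col6a6 can take the place of Col6a3, and they were dim. Col6a5 spread more between arrays of one genotype than any other collagen, with a residual SD of 0.53, a spread that 1.26% of all genes exceeded. It was at 8.06 on WT A8 and 8.05 on IhhKO_ApcKO B9, at 7.48 on C9 and 7.23 on B2, and between 6.13 and 7.13 on the other 20 arrays. The highest levels were thus on a WT and an IhhKO_ApcKO array, and the highest ApcKO array, B2, was near WT A2 at 7.13. The difference in ApcKO minus WT was -0.48 (SE 0.25, interval -0.99 to 0.042), and -0.31 without A8. Col6a6 had a lowest, median and highest level of 5.93, 6.23 and 6.42 in WT, of 5.82, 5.94 and 6.41 in ApcKO, and of 5.74, 5.93 and 6.28 in IhhKO_ApcKO. ApcKO A9 was apart from the other ApcKO arrays, which reached 6.03. The differences of Col6a6 from WT were -0.20 in ApcKO (SE 0.091, adjusted p = 0.97) and -0.21 in IhhKO_ApcKO (SE 0.089, adjusted p = 0.58). In the fit with the code letter they turned to 0.22 and 0.57.

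Collagens XV and XVIII each carry a fragment that can be cut off and restrain vessel growth. Col15a1 had a lowest, median and highest level of 9.09, 9.28 and 9.51 in WT, of 8.82, 9.29 and 9.48 in ApcKO, and of 8.39, 9.20 and 9.33 in IhhKO_ApcKO. The medians lay close together, and 4 IhhKO_ApcKO arrays (C3, C6, C7 and C9) lay below every WT array. Its difference from WT was -0.27 (SE 0.12, interval -0.52 to -0.019, adjusted p = 0.61). Col18a1 stood at 7.78 ± 0.11, 7.78 ± 0.16 and 7.76 ± 0.14, with a difference from WT of -0.021 (SE 0.071, interval -0.17 to 0.13). The network-forming Col8a1 differed from WT by 0.012 (SE 0.067, interval -0.13 to 0.15). Leaving out 1 array at a time moved these differences across 0, from -0.054 to 0.011 for Col18a1 and from -0.017 to 0.048 for Col8a1. Among the transmembrane collagens, Col17a1, an anchor of skin epithelium, was at 6.11 ± 0.14 in WT and 6.03 ± 0.06 in IhhKO_ApcKO, and Col23a1 at 6.83 ± 0.10 and 6.72 ± 0.05.

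Levels of most partner chains went together between arrays of one genotype. For 10 pairs of chains that share a molecule or a fibre, levels were centred on the group mean and correlated over 24 arrays, with permutation tests within genotype adjusted over the 10 pairs; 9 passed by Pearson's r and 8 by Spearman's rho. Col1a1 and Col1a2 had r = 0.91 and rho = 0.91 (permutation adjusted p = 2.5e-05 and 5e-05), and r was 0.88 without the 2 arrays farthest from the median. Within WT, ApcKO and IhhKO_ApcKO, r was 0.89, 0.92 and 0.96. Of the 30826 other genes, Col1a2 had the highest r with Col1a1, and the gene with the highest r with Col1a2 was Col3a1 at 0.97. Col1a1 and Col3a1 had r = 0.91 and rho = 0.85 (permutation adjusted p = 2.5e-05 and 6.7e-05; 0.90 without the 2 arrays). The raw p of 1e-05 for r, reached by these pairs, Col4a1 with Col4a2 and Col5a1 with Col5a2, is the smallest that 100000 permutations can give.

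Col4a1 and Col4a2, whose start regions are printed above, had r = 0.90 and rho = 0.89 (permutation adjusted p = 2.5e-05 and 5e-05; 0.84 without the 2 arrays). Within WT, ApcKO and IhhKO_ApcKO, r was 0.92, 0.96 and 0.83. Col4a1 had the highest r of all 30826 other genes with Col4a2, and Col4a2 ranked 2 with Col4a1. Col4a5 and Col4a6, the neighbouring pair on chromosome X, had r = 0.70 and rho = 0.64 (permutation adjusted p = 0.00046 and 0.0028; 0.51 without the 2 arrays). That relation had r = 0.94 within IhhKO_ApcKO, 0.49 within WT and 0.30 within ApcKO, and 0.62 over the groups without B9. Col4a6 ranked 61 of 30826 with Col4a5. The dim pair Col4a3 and Col4a4 had r = 0.63 and rho = 0.53 (permutation adjusted p = 0.012 and 0.025), but r = 0.29 without the 2 arrays (permutation adjusted p = 0.27). Its r was 0.91 within WT, 0.11 within ApcKO and 0.096 within IhhKO_ApcKO. Leaving out the arrays farthest from the median of the first gene narrows its range, which can itself lower r. Col4a4 ranked 521 with Col4a3, and Col4a3 ranked 3159 with Col4a4.

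**Figure D4:**
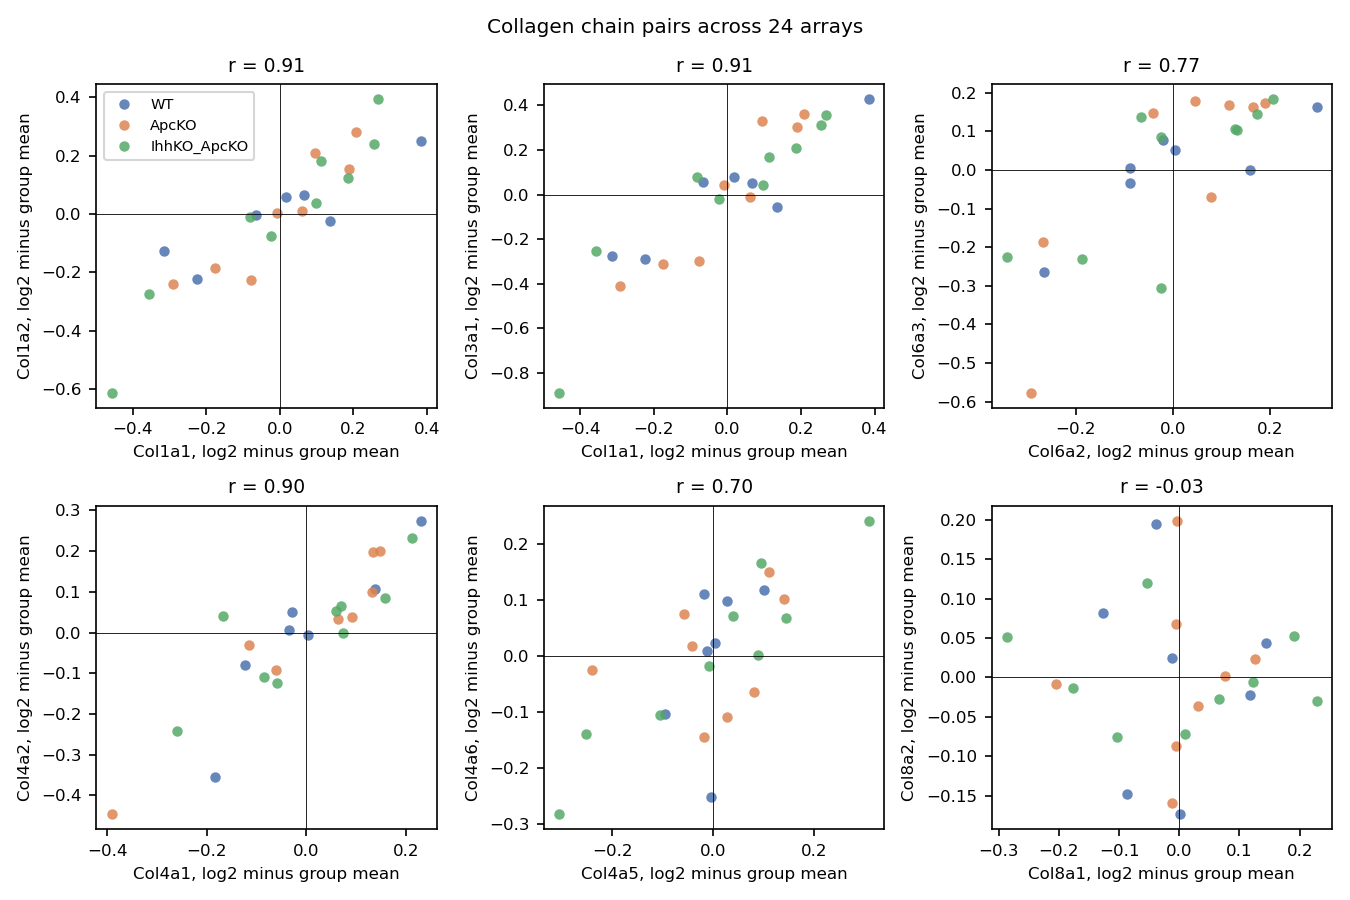
Levels of 6 collagen chain pairs on 24 arrays, each centred on its genotype mean (log2), coloured by genotype, with Pearson's r above each panel. Col1a1 with Col1a2, Col1a1 with Col3a1 and Col4a1 with Col4a2 line up at r of 0.90 to 0.91, and Col8a1 with Col8a2 shows no line at r = -0.03.

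Col5a1 and Col5a2, chains of collagen V, had r = 0.83 and rho = 0.79 (permutation adjusted p = 2.5e-05 and 0.00014; 0.79 without the 2 arrays). The collagen VI chains were less tightly tied to one another. Col6a2 had r = 0.77 with Col6a1 and 0.77 with Col6a3 (rho = 0.74 and 0.73, permutation adjusted p for r = 0.0002 and 0.00012). Col6a1 and Col6a3 had r = 0.50 and rho = 0.41 (permutation adjusted p = 0.026 and 0.060). Their r fell to 0.25 without the 2 arrays (permutation adjusted p = 0.29), where the narrower range of Col6a1 can itself lower r. The gene with the highest r with Col6a2 was Col5a1, at 0.90. Of the 30826 other genes, Col6a2 and Col6a3 ranked 155 and 2239 with Col6a1, and Col5a2 ranked 16 with Col5a1. Many genes outside these pairs thus went as closely or more closely with Col6a1. Col8a1 and Col8a2, which can form a network together or each alone, had r = -0.029 and rho = -0.053 (permutation adjusted p = 0.88 and 0.81). All arrays were normalized together, and the part of RNA quality or labelling in these correlations was not tested.

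Markers of other cell types varied between arrays and are set beside the collagens. Markers of leukocytes (7 measured), blood endothelium (6) and glia and neurons (5) had array means from 4.61 to 5.29, from 4.85 to 6.02 and from 5.23 to 5.66, with 0 members above the stricter control level, and 6 pericyte markers had means from 6.65 to 7.11. The mean of 12 epithelial markers ran from 5.25 to 8.26, with 4 of 12 above that level; group means were 6.73 in WT, 7.34 in ApcKO and 6.97 in IhhKO_ApcKO. C9 and C3, the arrays with the lowest bright collagens, had the highest and the lowest epithelial mean, 8.26 and 5.25. The mean of 7 smooth muscle markers ran from 7.43 to 8.53, with 2 of 7 above the control level, and group means were 8.08, 8.23 and 7.84. It was lower in IhhKO_ApcKO by 0.39 than in ApcKO and by 0.24 than in WT, with 0 of 7 markers called. Fibroblast markers were also lower in IhhKO_ApcKO, with 0 called. The mean of 6 general markers differed by -0.039 from ApcKO and -0.11 from WT. For 5 markers of PDGFRA-high subepithelial fibroblasts the differences were -0.19 and -0.12, and for 4 of CD34-positive fibroblasts -0.085 and -0.074. Whether the collagens share these differences was not tested.

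Of 14 collagens correlated with each mean (centred on genotype, 24 arrays, adjusted over the 14), Col12a1 went most clearly with the smooth muscle mean, at r = 0.73 and rho = 0.60 (permutation adjusted p = 0.0038 and 0.058; 0.60 without the 2 farthest arrays). Col15a1 and Col4a5 followed, at r = 0.58 and 0.56 (permutation adjusted p = 0.036 for each, 0.11 for each by rho). Without the 2 arrays r was 0.36 and 0.34, and without B9 it was 0.56 and 0.46. Within WT, ApcKO and IhhKO_ApcKO, r was 0.46, 0.098 and 0.84 for Col15a1 and -0.016, 0.30 and 0.84 for Col4a5. For Col12a1, r was 0.79, 0.31 and 0.85 in the same order, and 0.71 over the groups without B9. Col14a1 had r = 0.037 with that mean (permutation adjusted p = 0.88). C7 and C9 had the lowest smooth muscle means, 7.43 and 7.45, and also the lowest Col12a1 and Col15a1. With the epithelial mean 0 of 14 passed by r and 4 by rho (Col4a1, Col6a1, Col15a1 and Col18a1), the lowest r being -0.55 for Col15a1 (permutation adjusted p = 0.081). These relations were looked at after the data were seen, and the part of other cells in the collagen levels was not tested. With the epithelial mean as a covariate, all 11 bright collagens were again lower in IhhKO_ApcKO than in either other group. The medians were -0.15 against WT and -0.19 against ApcKO. With the code letter in place of that mean, in the fit that rests on A9 and B9, 11 were lower than WT and 7 lower than ApcKO.

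Genes that make, export, trim and bind collagen gave no calls either. Of 16 measured genes of synthesis and folding, 0 passed in any comparison, and 13 had lower means in IhhKO_ApcKO than in WT (median -0.066). P4ha2, a subunit of the enzyme that hydroxylates prolines of collagen, differed by -0.15 (SE 0.060, adjusted p = 0.52), and Colgalt2, a collagen galactosyltransferase, by -0.14 from ApcKO (SE 0.068). Of 7 export genes, 0 passed and 6 had higher means than in WT (median 0.088). Sar1b, a GTPase of the vesicle coat that carries procollagen, was at 9.47 ± 0.07 in IhhKO_ApcKO and 9.28 ± 0.14 in ApcKO, a difference of 0.19 (SE 0.062, adjusted p = 0.54). Mia3, the receptor that loads procollagen for export, differed from WT by 0.11 (SE 0.064).

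Of 9 measured genes of propeptide removal, 0 passed and 6 were lower than in WT (median -0.10). Pcolce, a secreted enhancer of the enzyme that trims fibrillar procollagen, stood at 9.69 ± 0.07 in WT, 9.59 ± 0.07 in ApcKO and 9.51 ± 0.11 in IhhKO_ApcKO, a difference of -0.17 from WT (SE 0.049, adjusted p = 0.24). Adamts3, a protease that removes the other propeptide, differed by 0.19 (SE 0.077, adjusted p = 0.54). Of 9 collagen receptors, 0 passed and 8 were lower than in WT (median -0.036). Itga11, the alpha chain of a fibroblast integrin for collagen I, stood at 8.18 ± 0.18, 7.97 ± 0.29 and 7.80 ± 0.18, a difference of -0.38 (SE 0.11, adjusted p = 0.24). Gp6, a receptor of platelets, was near the control median at 4.81 in WT and 4.68 in IhhKO_ApcKO.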

How the data were processed

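RNA of 24 samples was measured on Affymetrix GeneChip Mouse Transcriptome Array 1.0 arrays after amplification of 2 ng with a 3' IVT pico kit, per the labels' protocols. The deposited values are log2 values made by the authors with RMA, per the submitters' processing notes; which software ran RMA, and on which build, is not given in the sources used here. RMA usually includes quantile normalization, which removes shifts shared by most genes.

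Of 72688 probe sets, 6732 controls were left out; of the other 65956, 31388 had 1 gene in the platform annotation, 1362 had several and were not named, and 33206 had none. Symbols of 936 were updated through the Entrez gene. This gave 30827 genes, 423 of them with more than 1 probe set. Col7a1 shares its probe set with a microRNA gene and was not named. Arrays give no counts, and their number (7, 8 and 9) limits the precision.

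A model of genotype over all 24 arrays was fitted to every gene (lmFit and eBayes of limma 3.58.1, R 4.3.3), and the procedure was tested on simulated data. Values are given for the 4 members with the smallest p in each comparison, for 12 listed members and for the 2 genes with the smallest p of each pathway list. Members, lists and tests were chosen with earlier results of these data known. The split at the control level, the marker correlations, the partner ranks, the overlap counts without B9 and a block by the number in the sample code were added after the data were seen. The alternatives were the code letter as a block, only both groups' arrays, median centring, array weights, trended and robust eBayes, only genes above the median level, the mean of all probe sets, protein-coding genes, the epithelial mean as a covariate, and each array left out.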

Additional observations from a re-analysis of the deposited data

Results flagged for a closer look

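In 129 groups of collagen values (43 genes in 3 genotypes), the highest or lowest array stood far from its neighbour 13 times, in 12 genes. Chance alone marks about 1 in 20 such groups. The share over all genes is not given here, and collagens of one array vary together. The number was thus not tested against chance. WT A2 was the highest WT array for 3 dim genes: Col4a3 at 6.57, Col19a1 at 5.31 and Col23a1 at 7.06. Its median over all genes, 5.72, was also the highest of all arrays. ApcKO A9 was the lowest ApcKO array for Col4a2 at 7.76 and the highest for Col6a6 at 6.41 and for Col23a1 at 6.996. IhhKO_ApcKO C3 was the lowest array of its group for Col3a1 at 9.54 and for Col16a1 at 6.81. WT A8 was the highest WT array for Col6a5 at 8.06, IhhKO_ApcKO C9 the highest of its group for Col9a1 at 6.01, and ApcKO B4 the highest ApcKO array for Col17a1 at 6.22. ApcKO B1 was the lowest ApcKO array for Col4a4 at 5.94, and ApcKO B7 the lowest for Col8a1 at 7.86.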

How the results depend on the processing

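In each comparison, 0 of 43 collagens passed under all 34 alternatives, with a lowest adjusted p of 0.13 in ApcKO minus WT, 0.24 in IhhKO_ApcKO minus ApcKO and 0.062 in IhhKO_ApcKO minus WT. Over all genes the counts were 0, 14 and 25, against 113, 53 and 84 with the code letter as a block, 0, 65 and 45 with array weights, 0, 41 and 67 without B9, and 0, 16 and 14 with the code number as a block. The letter block, which rests on A9 and B9, turned the median difference of the collagens in IhhKO_ApcKO minus ApcKO to 0.026. It also turned Col1a1 to 0.043, Col3a1 to 0.21, Col4a5 to 0.14 and Colgalt2 to 0.096 in that comparison. In ApcKO minus WT it turned Col6a6 to 0.22 and Col14a1 to -0.19. In IhhKO_ApcKO minus WT it turned Col4a1 to -0.34, Col4a2 to -0.38, Col4a5 to 0.0019, Col4a6 to 0.12, Col6a6 to 0.57, Col8a1 to -0.28, Adamts3 to -0.11 and Mia3 to -0.20; the cause was not tested. Col18a1 in IhhKO_ApcKO minus WT turned to 0.0069 after centring, 0.0063 with array weights and 0.0092 with the number block. Leaving out 1 array, Col3a1 in IhhKO_ApcKO minus ApcKO ran from -0.14 to 0.027, Col14a1 in ApcKO minus WT from -0.046 to 0.068, and Col18a1 and Col8a1 in IhhKO_ApcKO minus WT from -0.054 to 0.011 and from -0.017 to 0.048. The other differences from the fit that are printed with a standard error kept their direction in all 34. Of the chain pairs, 9 passed, also 9 without B9 and 7 without the 2 farthest arrays. The number of arrays and dim signals limit the precision for the 32 dim collagens. The codes also hold a number that groups share. Of 20 pairs of arrays with the same number in different groups, 12 had deviations from the group means that correlated above 0.1. Among 171 pairs with different numbers, 25.1% did. The medians were 0.13 (range -0.060 to 0.33) and -0.023, so arrays of the same number tended to deviate together. Only 5 of 24 arrays correlated best with one of their own number. The sources used here do not state what the number means, and the main fit has no term for it. With the code number as a replicate block, added after the data were seen, 0 collagens passed; all 11 bright collagens were lower in IhhKO_ApcKO than in ApcKO (median -0.14) and WT (median -0.16).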
